A study of Mus musculus with 24 samples.

Results

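The genes described here are 6 members of the lipolytic pathway of fat cells, chosen by symbol for their role and not by a threshold on their values: the triglyceride lipase Pnpla2 (ATGL), its coactivator Abhd5 (CGI-58), its inhibitor G0s2, the diglyceride lipase Lipe (HSL), the monoglyceride lipase Mgll, and the carboxylesterase Ces1d. They are 6 of the 12615 genes in the count table, and 6 of 6 passed the filter on low counts. Brown adipose tissue (BAT) RNA from 24 female mice, as the labels give the sex, was sequenced from the 3′ ends of transcripts, 6 mice to each of 4 groups. All mice carried the floxed alleles TBLR1 fl/fl and TBL1 fl/fl, which are the genes Tbl1xr1 and Tbl1x, and all were given tamoxifen. The groups called BATdKO were positive for Ucp1CreERT2, a Cre recombinase that is driven by the brown adipocyte promoter of Ucp1 and is active after tamoxifen, and the groups called Cre- were negative for it, so that other cells of the depot keep both genes in either group. Mice had been raised at 22°C and were placed, 3 weeks after the last tamoxifen injection, either at 30°C for 4 days or, through 1 day each at 18°C, 16°C and 12°C, at 8°C for 6 days. The labels give the age at tamoxifen as 5 years, whereas the methods of the study count it in weeks, and the study's text also gives males and fewer days at 8°C. Within each group the mice are numbered m1 to m6.

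Lipolysis releases fatty acids from the triglyceride stored in lipid droplets, and in brown fat these fatty acids both fuel the mitochondria and open the proton channel UCP1. The pathway works in steps, in which PNPLA2 removes the first fatty acid from triglyceride, LIPE cleaves the diglyceride and MGLL the monoglyceride. ABHD5 binds and activates PNPLA2 once beta-adrenergic signalling has freed it from the droplet protein perilipin, while G0S2 binds PNPLA2 and blocks it. CES1D is an esterase of the endoplasmic reticulum that hydrolyses triglyceride in liver and fat. Much of this control acts on the proteins, by phosphorylation and binding, which RNA does not show.

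Mgll and Abhd5 were the members whose transcripts rose in the cold, and the promoter sequences of both are shown with that of Pnpla2, which acts first in the pathway and was not called. The windows run from 250 bases before to 50 bases after the start site in RefSeq on GRCm38.p6, read 5′ to 3′ on the strand of the gene, and capitals mark matches to the motifs searched. They are chr6:88724162-88724461 on the plus strand for Mgll, chr9:122351366-122351665 on the plus strand for Abhd5 and chr7:141454938-141455237 on the plus strand for Pnpla2.
Mgll: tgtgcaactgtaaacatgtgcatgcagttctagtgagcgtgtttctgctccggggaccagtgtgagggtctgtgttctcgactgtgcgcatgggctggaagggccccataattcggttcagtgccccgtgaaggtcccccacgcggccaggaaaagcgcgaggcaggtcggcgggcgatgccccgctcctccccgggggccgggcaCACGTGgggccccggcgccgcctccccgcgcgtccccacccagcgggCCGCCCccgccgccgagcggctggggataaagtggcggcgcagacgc
Abhd5: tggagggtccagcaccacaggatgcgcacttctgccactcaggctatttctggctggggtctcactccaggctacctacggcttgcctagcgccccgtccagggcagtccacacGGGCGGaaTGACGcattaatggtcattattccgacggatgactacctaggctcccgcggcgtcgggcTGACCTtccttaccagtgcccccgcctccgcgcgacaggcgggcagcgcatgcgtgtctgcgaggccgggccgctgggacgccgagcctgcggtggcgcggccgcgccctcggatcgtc
Pnpla2: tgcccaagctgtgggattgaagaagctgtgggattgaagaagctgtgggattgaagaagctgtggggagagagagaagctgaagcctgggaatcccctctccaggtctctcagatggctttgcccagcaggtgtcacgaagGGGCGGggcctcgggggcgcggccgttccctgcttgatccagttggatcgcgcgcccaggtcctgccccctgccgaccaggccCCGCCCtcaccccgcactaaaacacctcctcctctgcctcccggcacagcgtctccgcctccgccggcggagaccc
The motifs, searched on both strands, were the cAMP response element core TGACG, the full element TGACGTCA that contains it, the nuclear receptor core AGGTCA, the E-box CACGTG, the GC box GGGCGG and CCAAT. The Abhd5 window held a TGACG match at -128 from the start site, an AGGTCA match at -69 and a GC box at -136. The Mgll window held an E-box at -44 and a GC box at 3, and a second start site of Mgll had a TGACG match at 19. The Pnpla2 window held GC boxes at -109 and -26 and no match to the other letters searched. Other members not called in the cold did hold such matches. The G0s2 window had a TGACG match at -246 and a GC box at -18. A first start site of Lipe had an E-box at -155 and GC boxes from -146 to -15, and its second had 0 matches. Of all 32851 promoter windows of that length, 20.8% held TGACG, 1.79% TGACGTCA, 16.3% AGGTCA, 7.15% CACGTG, 35.7% GGGCGG and 37.4% CCAAT. These matches are descriptions of the sequence and not of binding. RefSeq windows were matched for 5 of the 6 members, all but Ces1d.

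The libraries held 699703 to 11527643 counts, with a median of 6644364.5, and the smallest was Cre- 30°C m4. The genes targeted by the Cre went against the labels. Tbl1xr1 (chr3:22076652-22216594) stood at 39.8 ± 4.01 CPM (counts relative to the TMM-normalized library size, mean ± SD) in the libraries labelled BATdKO at 8°C and at 20.9 ± 2.24 CPM in those labelled Cre-, a log2 fold change of 0.92 ± 0.17 (SE) with no overlap (adjusted p = 0.00348, edgeR). Tbl1x (chrX:77511013-77662983) was likewise higher under the BATdKO label, at 53.8 ± 6.75 against 40.7 ± 1.88 CPM (log2 0.39 ± 0.10, adjusted p = 0.0633), a call that held in 15 of 24 fits with 1 library left out and was lost without Cre- 8°C m1, m3, m5 or m6 or without BATdKO 8°C m1, m2, m4, m5 or m6 (adjusted p up to 0.151). Which exons the deletion removes, and whether the 3′ tags lie in them, is not given in the sources used here. At 30°C the libraries m6 of both genotypes stood apart, with Tbl1xr1 at 38.6 CPM in Cre- m6 and 17.0 CPM in BATdKO m6. Every direction between genotypes below is therefore a direction between libraries labelled BATdKO and libraries labelled Cre-. Fold changes and counts of calls were also computed without both m6 libraries at 30°C.

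The tissue label was checked against marker genes. All 7 brown adipocyte markers (Ucp1, Cidea, Dio2, Elovl3, Cox7a1, Cox8b and Ppargc1a) were in the table, with Ucp1 at 28.9 to 2080 CPM and Dio2 at 0 in 1 library. All 7 hepatocyte markers were present too, and Alb (albumin) stood at 5690 to 14400 CPM. The summed hepatocyte markers exceeded the summed brown adipocyte markers in 24 of 24 libraries, by 7.97 to 72.2 times, so that transcripts typical of liver were abundant in every library labelled brown fat. The hepatocyte sum overlapped between the 4 groups, with medians of 30400 to 32700 CPM. Hepatocytes also express Pnpla2, Abhd5, G0s2, Mgll and Ces1d, and the part of liver-type RNA in the level of a member was not tested. In whole tissue, moreover, fewer cells of a type and less RNA per cell cannot be told apart.

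**Figure D1:**
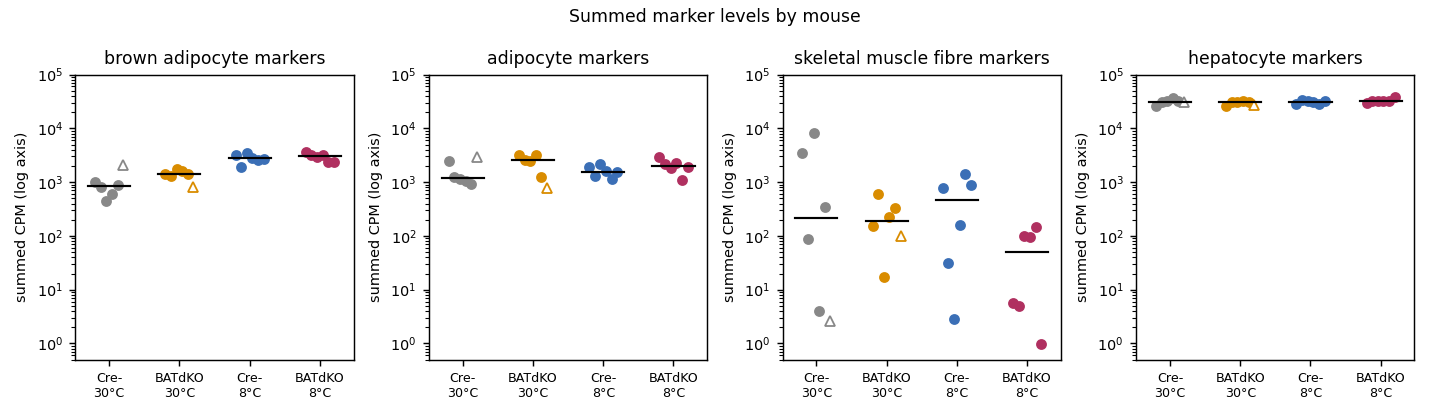
Summed CPM of the brown adipocyte, adipocyte, skeletal muscle fibre and hepatocyte markers in each mouse (vertical log axis) by group; lines are medians and open triangles mark m6 of each genotype at 30°C. The brown adipocyte sum is higher at 8°C (medians 2760 and 3020) than at 30°C (849 and 1410), and the hepatocyte sum stays between 25500 and 37600.

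The first question was how the pathway differed between prolonged cold and warmth. A rise or fall in the cold means throughout a difference of the 8°C groups from the warm groups. The warm groups had also left the rearing temperature, for fewer days, and no group stayed at it. Whether the warm groups changed instead, and the part of the unequal time, could therefore not be tested. Library numbers ran in separate blocks for warm and cold libraries, so the part of any batch in these differences could not be tested either. In mice labelled Cre-, 2 of the 6 members rose at 8°C, Mgll by 1.64-fold and Abhd5 by 1.85-fold, and none fell. Of all 12485 genes tested, 5.57% were called higher and 3.59% lower in this comparison. In mice labelled BATdKO the same 2 members rose, Mgll by 1.44-fold and Abhd5 by 1.70-fold, against 3.76% of all genes called higher and 3.31% lower. Pnpla2, Lipe, G0s2 and Ces1d were not called in either genotype. The median log2 fold change of all genes was -0.02 in Cre- and -0.0026 in BATdKO mice. TMM normalization places most genes near 0, so these medians are descriptions only. Calls were made at an adjusted p under 0.1, the threshold of the study, with edgeR's quasi-likelihood test and Benjamini-Hochberg adjustment over all tested genes.

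**Figure D2:**
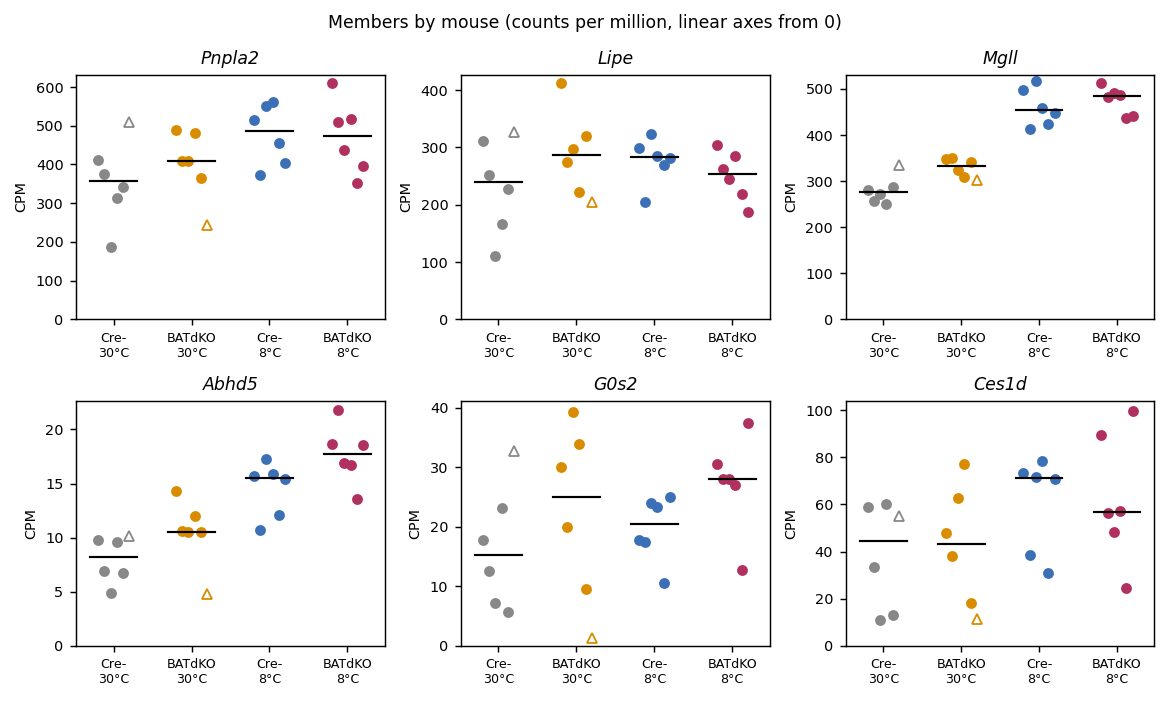
CPM of the 6 members in each of the 24 mice (vertical linear axes from 0) by group; lines are group medians and open triangles mark m6 of each genotype at 30°C. Mgll at 8°C lies wholly above 30°C in both genotypes (413 to 518 and 436 to 512 against 251 to 335 and 302 to 351 CPM), while the groups of Pnpla2, Lipe, G0s2 and Ces1d overlap.

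Mgll (chr6:88724412-88828360, plus strand), whose product completes the breakdown of triglyceride to glycerol, had the smallest standard errors of the members. In the Cre- libraries it ranged from 251 to 335 CPM at 30°C (median 276) and from 413 to 518 CPM at 8°C (median 453). In the BATdKO libraries it ranged from 302 to 351 CPM at 30°C (median 333) and from 436 to 512 CPM at 8°C (median 484). The cold and warm groups did not overlap in either genotype, whereas the genotypes overlapped at each temperature. The log2 fold change in the cold was 0.71 ± 0.075 (SE, 95% interval 0.553 to 0.866, adjusted p = 4.76e-07) in Cre- mice and 0.53 ± 0.074 (0.373 to 0.683, adjusted p = 4.94e-05) in BATdKO mice. Among all genes, 2.19% stood wholly higher in the cold in Cre- mice and 1.75% in BATdKO mice. Both calls held in all 32 alternative settings, with log2 fold changes of 0.673 to 0.77 and 0.497 to 0.549. The order of the group medians was Cre- 30°C, BATdKO 30°C, Cre- 8°C and BATdKO 8°C, and only the step from BATdKO 30°C to Cre- 8°C separated neighbours without overlap. An exon of Gm26588 overlaps Mgll on the other strand, and the sources used here do not give the strand setting of the counting.

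Abhd5 (chr9:122351608-122381524, plus strand), the coactivator of PNPLA2, was measured by few counts, from 7 in Cre- 30°C m4 to 222. In Cre- libraries it stood at 4.87 to 10.1 CPM at 30°C (median 8.23) and at 10.7 to 17.3 CPM at 8°C (median 15.6). In BATdKO libraries it stood at 4.81 to 14.3 CPM at 30°C (median 10.6) and at 13.6 to 21.8 CPM at 8°C (median 17.8). The cold and warm groups were separate in Cre- mice and overlapped in BATdKO mice, where m1 at 30°C lay above m5 at 8°C. The log2 fold change in the cold was 0.89 ± 0.19 (0.485 to 1.29, adjusted p = 0.00424) in Cre- mice and 0.76 ± 0.19 (0.375 to 1.15, adjusted p = 0.0149) in BATdKO mice. Both calls held in all 32 alternatives, with adjusted p values of up to 0.014 and 0.0544. The medians followed the order of Mgll, with every pair of neighbours overlapping. The counting interval of the shallowest library ran from 4.63 to 19.8 CPM. A730085K08Rik overlaps an exon of Abhd5 on the other strand.

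Most markers of the brown adipocyte rose in the cold together with Mgll and Abhd5. Of 7 markers, 6 were called higher in each genotype, and Cidea was not called, at log2 0.26 ± 0.26 in Cre- and -0.73 ± 0.26 in BATdKO mice. The summed markers of that cell had a median of 849 CPM in Cre- mice at 30°C and 2760 CPM at 8°C, and of 1410 and 3020 CPM in BATdKO mice. In Cre- mice the sum ranged from 447 to 2040 CPM at 30°C and from 1890 to 3470 CPM at 8°C, and in BATdKO mice from 795 to 1730 and from 2360 to 3670 CPM. The general adipocyte markers (Adipoq, Fabp4, Plin1, Pparg, Cfd, Retn and Lep) had medians of 1200, 2550, 1570 and 2030 CPM in Cre- 30°C, BATdKO 30°C, Cre- 8°C and BATdKO 8°C, and all these groups overlapped. Within that list 0 of 7 markers were called higher and 3 lower in the cold in each genotype, namely Adipoq (-0.58 and -0.93), Cfd (-1.33 and -2.71) and Lep (-3.43 and -2.75), while Fabp4, which gave the most counts of the list by group mean, was not called. Markers of other cells moved with the cold as well. The summed endothelial markers ranged from 117 to 141 CPM at 30°C and from 148 to 203 CPM at 8°C in Cre- mice, without overlap, and from 124 to 160 and from 142 to 200 CPM in BATdKO mice, with 2 and 1 of 5 markers called higher. All 4 haemoglobin genes measured were called higher in both genotypes, and their sum went from a median of 3600 to 5270 CPM in Cre- and from 3520 to 5310 CPM in BATdKO mice. In BATdKO mice 2 of 6 stromal markers were called lower and the B cell marker measured was called higher. Of the muscle, hepatocyte and macrophage markers 0 were called in either cold comparison. The part of any of these cell types in the rise of Mgll and Abhd5 was not tested.

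Pnpla2 (chr7:141455198-141460743, plus strand), the lipase of the first step, was higher in the cold on average without passing the test. In Cre- libraries it stood at 186 to 509 CPM at 30°C (median 359) and at 372 to 561 CPM at 8°C (median 486). In BATdKO libraries it stood at 243 to 489 CPM at 30°C (median 408) and at 352 to 611 CPM at 8°C (median 474). All 4 groups overlapped. The log2 difference in the cold was 0.42 ± 0.18 (0.0398 to 0.795, adjusted p = 0.196) in Cre- mice and 0.24 ± 0.18 (-0.139 to 0.613, adjusted p = 0.55) in BATdKO mice. The first value moved with single libraries of Cre- 30°C. Without m6, the highest of that group, the log2 difference was 0.55 and was called (adjusted p = 0.0587), and without m3, the lowest, it was 0.279 (adjusted p = 0.417), the adjusted p running from 0.0289 to 0.417 over all alternatives. In Cre- mice the upper bound of the interval leaves room for a rise as large as that of Mgll.

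Lipe (chr7:25379527-25398710, minus strand) encodes hormone-sensitive lipase, the diglyceride lipase that protein kinase A phosphorylates. In Cre- libraries it ranged from 110 to 326 CPM at 30°C (median 240) and from 205 to 324 CPM at 8°C (median 284). In BATdKO libraries it ranged from 204 to 412 CPM at 30°C (median 286) and from 187 to 305 CPM at 8°C (median 254). The medians lay close together and all groups overlapped. The log2 difference in the cold was 0.24 ± 0.19 (-0.16 to 0.648, adjusted p = 0.548) in Cre- mice and -0.20 ± 0.19 (-0.604 to 0.201, adjusted p = 0.657) in BATdKO mice. An exon of 4732471J01Rik lies on the other strand of Lipe.

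G0s2 (chr1:193272161-193273217, minus strand), the inhibitor of PNPLA2, varied widely within groups. In Cre- libraries it stood at 5.66 to 32.8 CPM at 30°C (median 15.2) and at 10.6 to 25 CPM at 8°C (median 20.5). In BATdKO libraries it stood at 1.35 to 39.3 CPM at 30°C (median 25) and at 12.8 to 37.4 CPM at 8°C (median 28). The lowest value, 9 counts in BATdKO 30°C m6, had a counting interval of 0.711 to 2.57 CPM, below every other library. The spread left wide intervals for the effect of cold, with log2 differences of 0.31 ± 0.44 (-0.605 to 1.23, adjusted p = 0.786) in Cre- and 0.28 ± 0.42 (-0.601 to 1.16, adjusted p = 0.804) in BATdKO mice. A change of the size seen for Mgll lies within both intervals and was not detectable at this spread.

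Ces1d (chr8:93166068-93197838, minus strand) showed the same breadth. In Cre- libraries it stood at 10.8 to 60.1 CPM at 30°C (median 44.3) and at 30.9 to 78.4 CPM at 8°C (median 71.2). In BATdKO libraries it stood at 11.4 to 77.2 CPM at 30°C (median 43) and at 24.5 to 99.6 CPM at 8°C (median 56.9). All groups overlapped. The log2 difference in the cold was 0.72 ± 0.42 (-0.154 to 1.6, adjusted p = 0.376) in Cre- and 0.53 ± 0.41 (-0.325 to 1.39, adjusted p = 0.557) in BATdKO mice, point values near those of Mgll with errors several times as large. Ces1d belongs to a cluster of closely related carboxylesterase genes, of which Ces1c was present at group means of 326 to 414 CPM, and how shared reads were assigned is not given in the sources used here, so its level is uncertain.

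**Figure D3:**
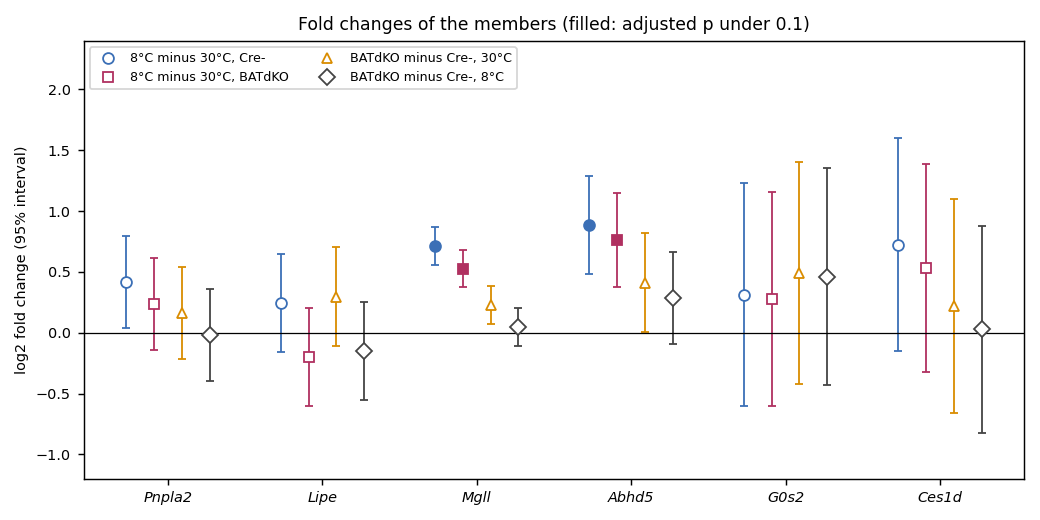
Log2 fold changes of the 6 members for cold in Cre-, cold in BATdKO, genotype at 30°C and genotype at 8°C, with 95% intervals. Filled points have an adjusted p under 0.1. The filled points are Mgll and Abhd5 in both cold comparisons, and the widest intervals belong to G0s2 and Ces1d.

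The second question was whether the libraries labelled BATdKO differed from those labelled Cre- in lipolytic transcripts during cold. No member was called at 8°C, where 0.697% of all genes were called higher and 1.12% lower by edgeR, no member had an unadjusted p under 0.05, and DESeq2 also called 0 members. For no member were the genotypes at 8°C separate, against 1.95% of all genes. The log2 difference was -0.02 for Pnpla2 (-0.396 to 0.356), -0.15 for Lipe (-0.551 to 0.255) and 0.05 for Mgll (-0.108 to 0.202). Mgll thus had an interval that excluded a difference as large as its own response to cold, and those of Pnpla2 and Lipe were wider. Abhd5 stood 0.29 higher under the BATdKO label (-0.0909 to 0.666, adjusted p = 0.705). G0s2 differed by 0.46 (-0.43 to 1.35, adjusted p = 0.846) and Ces1d by 0.03 (-0.821 to 0.878, adjusted p = 1), intervals that include a change of 1 on the log2 scale for G0s2. Cell markers differed here too. The adipocyte marker Cfd was called lower under the BATdKO label (-1.67 ± 0.45, adjusted p = 0.0713, edgeR). The B cell marker Ighm was called higher without overlap (1.46 ± 0.16, adjusted p = 5.07e-06, edgeR). All 9 muscle and 5 endothelial markers, but 0 of 7 hepatocyte markers, had negative log2 differences, and none was called. The part of these cell types in the members was not tested.

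At 30°C, edgeR called 0 of all genes (0%), with 1303 genes at an unadjusted p under 0.05, and DESeq2 called 92 genes but 0 members. The members stood higher under the BATdKO label in 6 of 6 cases, by log2 differences of 0.16 for Pnpla2 to 0.49 for G0s2. The median of all genes was -0.00986. The members varied together between libraries, so these are not 6 separate observations, and Ces1d turned to -0.0501 without BATdKO m4. Mgll, at 0.23 ± 0.075 (unadjusted p = 0.00497, adjusted p = 0.24), and Abhd5, at 0.41 ± 0.20 (unadjusted p = 0.0451, adjusted p = 0.462), were the members with an unadjusted p under 0.05 in edgeR. Cell markers differed in the same comparison. The adipocyte sum had a median of 2550 CPM in BATdKO libraries and of 1200 CPM in Cre- libraries, and the median brown adipocyte sum was 1410 against 849 CPM. All 9 muscle markers measured had lower means under the BATdKO label, for example Acta1 at 55 against 635 CPM and Ckm at 8.31 against 88.5 CPM, with Cre- m1 and m3 at sums of 3450 and 8040 CPM. None of the markers of these 3 cell types was called, and their part in the values of the members was not tested. The genotypes were separate for 0 of 6 members and for 0.296% of all genes. This comparison depended on the libraries m6. Without both of them, 500 genes were called and 3 members were among them, Mgll at 0.308 (adjusted p = 0.0207), Abhd5 at 0.66 (adjusted p = 0.032) and G0s2 at 1.17 (adjusted p = 0.0573). Over all alternatives the adjusted p ran from 0.0207 to 0.589 for Mgll, from 0.032 to 0.725 for Abhd5 and from 0.0573 to 0.923 for G0s2. Without Cre- m6 alone, Mgll was called at 0.294 (adjusted p = 0.0308). The choice to leave out both m6 libraries together was made after their values were seen, and their labels were kept in all other values.

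The interaction compares the effect of the BATdKO label at 8°C with that at 30°C. No member was called by edgeR or by DESeq2, none had an unadjusted p under 0.05, and 0.0961% of all genes were called by edgeR. The values were -0.18 for Pnpla2, -0.45 ± 0.27 for Lipe (adjusted p = 0.696), -0.18 ± 0.11 for Mgll (adjusted p = 0.676), -0.13 for Abhd5, -0.03 for G0s2 and -0.19 for Ces1d. The response of Mgll to cold was thus smaller under the BATdKO label in point value, and the difference did not pass the test.

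Ratios to Pnpla2 within a library show how the members shift against each other whatever the library total. They are log2 ratios of counts with 0.5 added, given as descriptions, and levels of different genes are not compared by them. The ratio of the coactivator Abhd5 to its lipase Pnpla2 had means of -5.44 ± 0.31 in Cre- 30°C, -5.28 ± 0.198 in BATdKO 30°C, -5.03 ± 0.181 in Cre- 8°C and -4.71 ± 0.231 in BATdKO 8°C. It was 0.568 higher in the cold in BATdKO mice, without overlap between the groups, and 0.404 higher in Cre- mice, with overlap. The ratio of Mgll to Pnpla2 was 0.247 higher in the cold in Cre- and 0.278 higher in BATdKO mice, both with overlap. The ratio of Lipe to Pnpla2 overlapped between the groups of every comparison, with means of -0.472 ± 0.346 at 30°C and -0.902 ± 0.141 at 8°C in BATdKO mice. The ratio of the inhibitor G0s2 to Pnpla2 had SDs of 0.451 to 1.47 within groups and overlapped in every comparison.

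**Figure D4:**
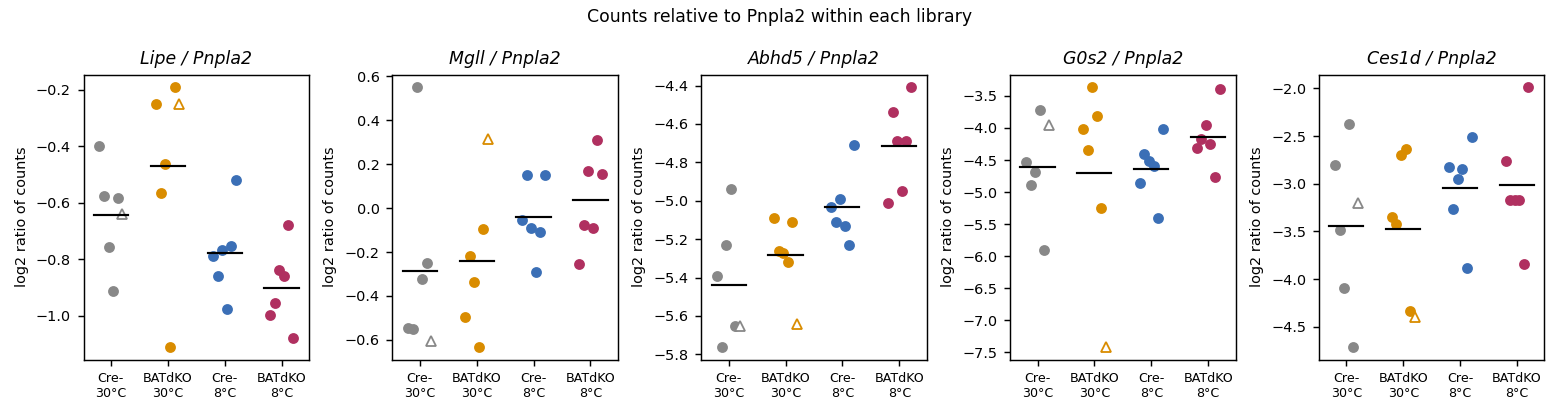
Log2 ratio of counts of each other member to Pnpla2 in each mouse by group; lines are means and open triangles mark m6 of each genotype at 30°C, and the vertical axes differ. The Abhd5 ratio is highest in BATdKO 8°C (mean -4.71) and clears BATdKO 30°C (mean -5.28) without overlap.

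The members also varied together between mice of the same group. BATdKO 30°C m6 was the lowest of its group for 6 of 6 members, BATdKO 8°C m5 for 5, Cre- 30°C m3 for 4 and Cre- 8°C m2 for 4, while Cre- 30°C m6 was the highest of its group for 5. Each of these mice stood at the end of its group in the brown adipocyte sum or the general adipocyte sum, but not always in both. The brown adipocyte sum was lowest in Cre- 30°C m3 at 447 CPM, in BATdKO 30°C m6 at 795 CPM and in Cre- 8°C m2 at 1890 CPM, and it was highest among Cre- 30°C mice in m6 at 2040 CPM. The general adipocyte sum was lowest in BATdKO 8°C m5 at 1090 CPM and in BATdKO 30°C m6 at 782 CPM. In Cre- mice that sum was lowest in m5, at 908 CPM at 30°C (m3 at 1160) and 1130 CPM at 8°C (m2 at 1310). The brown adipocyte sum of BATdKO 8°C was lowest in m6 at 2360 CPM, with m5 at 2370 CPM. In Cre- 30°C m3 the summed muscle markers, of which 9 of 10 were in the table, reached 8040 CPM against a group median of 219 CPM. The part of these cell types in the spread of the members was not tested.

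Across the 24 libraries, the highest Pearson correlation of log2 CPM between members was 0.872 for G0s2 with Ces1d, followed by 0.84 for Mgll with Abhd5 and 0.81 for Pnpla2 with Abhd5, and the lowest was 0.357 for Lipe with Mgll. The libraries share their groups and their cell mixture, so these values describe the data only. Among 6886 genes with a mean log2 CPM of at least 3, the pattern of Pnpla2 was nearest to that of Plin1 (perilipin, r = 0.94), Dlst (0.928) and Cox5b (0.923). Mgll was nearest to Letm1 (0.961), Gpd1 (0.946) and Ucp1 (0.944), and Abhd5 to Apmap (0.96), Cox8b (0.929) and Agpat2 (0.929). G0s2 was nearest to Slc25a5 (0.953), Bnip3l-ps (0.943) and Tomm22 (0.943), and Ces1d to Cox7c (0.962), Gm12338 (0.961) and Hibadh (0.961). Lipe had lower values, with Slc36a2 at 0.89 and Phlda3 at 0.854. Without the smallest library, the correlations of the genes named here lay between 0.873 and 0.967.

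The other genes around the 6 members were taken from 6 lists by role. Of 30 listed symbols for hydrolases of neutral lipids and glycerolipids, 24 were tested, and the untested Plaat3 is another symbol of the tested Pla2g16. In the cold, 3 were called higher and 1 lower in Cre- mice, and 3 and 2 in BATdKO mice, with median log2 fold changes of -0.0024 and 0.104. The rises included Ddhd2, a phospholipase and triglyceride hydrolase, at 1.71 ± 0.18 in Cre- and 0.99 ± 0.17 in BATdKO mice, and Lipa, the lysosomal acid lipase, at 0.33 ± 0.080 and 0.39 ± 0.079. Abhd6, a monoglyceride lipase like MGLL, rose by 0.64 ± 0.12 in Cre- mice. In BATdKO mice its mean also went up, from 23 ± 3.54 to 31.4 ± 3.01 CPM. Naming there stopped at the 4 genes of smallest p, so whether Abhd6 was called in BATdKO mice is not given. Pla2g16, a phospholipase of fat cells, fell by 0.89 in Cre- and by 1.11 in BATdKO mice, and Ddhd1 fell by 0.60 in BATdKO mice. At 8°C the list had 0 genes called higher and 1 lower under the BATdKO label, Ddhd2 at -0.61 ± 0.17 (adjusted p = 0.0792). That call was lost without Cre- 8°C m1, m3, m4 or m5 or BATdKO 8°C m2, m3, m5 or m6 (adjusted p up to 0.224).

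Droplet proteins that gate the access of lipases were tested for 9 of 10 listed genes. In the cold, 2 were called higher and 1 lower in Cre- mice and 2 each way in BATdKO mice, with medians of 0.257 and 0.0528. Plin5, which tethers droplets to mitochondria and binds ABHD5, rose by 0.76 ± 0.11 and 0.67 ± 0.11, without overlap in either genotype. Plin2, the droplet coat protein found in most cells, rose by 0.44 ± 0.097 and 0.47 ± 0.096. Hilpda, an inhibitor of PNPLA2, fell by 0.77 in Cre- and by 0.89 in BATdKO mice, and the first call was lost without Cre- 30°C m6 (log2 -0.598, adjusted p = 0.111). Plin4 fell by 1.22 in BATdKO mice. Plin1, which holds ABHD5 at rest, was not called, at 0.31 ± 0.27 and 0.13 ± 0.26.

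At 8°C, 1 droplet gene was called higher and 1 lower under the BATdKO label. Cidec, which enlarges droplets by fusion, stood at 157 ± 29.8 against 77.4 ± 10.8 CPM without overlap (log2 1.02 ± 0.26, adjusted p = 0.049), and the call was lost without Cre- 8°C m2 or m6 or without BATdKO 8°C m1 (adjusted p up to 0.118). Plin4 was lower, at -0.87 ± 0.25 (adjusted p = 0.0914), a call that held in 11 of 24 fits with 1 library left out. The 13 libraries it needed were m2 and m4 of Cre- 30°C, m2 and m3 of BATdKO 30°C, m1 to m5 of Cre- 8°C and m1, m3, m5 and m6 of BATdKO 8°C (adjusted p up to 0.228).

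The beta-adrenergic arm, which turns noradrenaline into cAMP and activates protein kinase A, had 12 of 18 genes tested. In the cold, 1 was called higher and 1 lower in Cre- mice and 2 and 1 in BATdKO mice, with medians of 0.195 and -0.0663. Gnas, the stimulatory G protein subunit, rose from 3.03 ± 0.602 to 9.84 ± 3.02 CPM in Cre- mice (1.67 ± 0.26) and by 1.52 ± 0.26 in BATdKO mice, and it overlaps other transcripts of an imprinted locus. Adcy9, an adenylyl cyclase, fell by 0.59 and 0.54. Prkaca, the catalytic subunit of protein kinase A, rose by 0.46 ± 0.13 in BATdKO mice, a call lost without BATdKO 30°C m2 or m6 or BATdKO 8°C m4 (adjusted p up to 0.106). At 8°C the receptor Adrb3 was lower under the BATdKO label, at 24.7 ± 7.67 against 49 ± 6.13 CPM without overlap (log2 -0.98 ± 0.26, adjusted p = 0.0592), with 0 genes of the list called higher. The Adrb3 call was lost without Cre- 8°C m1, m3 or m4 or BATdKO 8°C m1, m2, m3 or m5 (adjusted p up to 0.16).

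The antilipolytic arm, which holds insulin signalling, phosphodiesterases and inhibitory receptors, had 20 of 24 genes tested. In the cold, 3 were called higher and 2 lower in Cre- mice and 4 and 2 in BATdKO mice, with medians of 0.134 and 0.136. Ffar4, a receptor for long-chain fatty acids, rose from 0.202 ± 0.33 to 8.26 ± 4.01 CPM in Cre- mice and from 0.189 ± 0.173 to 3.55 ± 1.78 CPM in BATdKO mice, without overlap in either. The cAMP phosphodiesterase genes Pde4d and Pde4a rose by 1.22 ± 0.19 and 0.60 ± 0.15 in Cre- mice and by 0.77 ± 0.18 and 0.65 ± 0.15 in BATdKO mice. Adora1, an adenosine receptor, fell by 0.51 in Cre- mice. In BATdKO mice its mean also went down, from 37.4 ± 5.17 to 27.5 ± 2.55 CPM. Naming there stopped at the 4 genes of smallest p, so whether Adora1 was called in BATdKO mice is not given. Hcar1, the lactate receptor, fell by 3.09 in BATdKO mice from 4.02 ± 2.45 to 0.439 ± 0.218 CPM.

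At 8°C, 2 antilipolytic genes were called higher and 1 lower under the BATdKO label. Irs2, an adaptor of the insulin receptor, stood at 34.3 ± 7.7 against 17 ± 2.28 CPM (log2 0.99 ± 0.13, adjusted p = 5.21e-05). Gnai1, an inhibitory G protein subunit, was also higher, at 1.00 ± 0.18 (adjusted p = 0.00287). Hcar1 was lower, at 0.439 ± 0.218 against 2.42 ± 1.1 CPM (adjusted p = 0.0258). For all 3 genes the groups did not overlap. The calls held in all 32 alternatives for Irs2 and Gnai1 and in the 31 that gave an adjusted p for Hcar1, a gene of low level. Irs2, chosen here after its values were seen, was also lower in the cold in Cre- mice (-0.43 ± 0.13, adjusted p = 0.0464) and higher in BATdKO mice (0.39 ± 0.13, adjusted p = 0.0798), with an interaction of 0.82 that was not called (adjusted p = 0.105).

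Genes that handle the released fatty acids and glycerol, including re-esterification, had 7 of 8 listed symbols tested. The untested symbol, Gyk, is another name of Gk, which was tested. In the cold, 4 were called higher in Cre- and 3 in BATdKO mice and none lower, with medians of 0.507 and 0.32. Gk, glycerol kinase, rose by 1.25 ± 0.12 and 1.26 ± 0.12, and Dgat1, which re-esterifies fatty acids, by 0.68 ± 0.12 and 0.53 ± 0.12. Fabp5, a fatty acid carrier, and Acsl1, which activates fatty acids, rose by 0.54 ± 0.15 and 0.41 ± 0.13 in Cre- mice, the latter call being lost without any 1 of Cre- 30°C m1 to m5 or Cre- 8°C m1, m4, m5 or m6 (adjusted p up to 0.163). Dgat2, the other enzyme of the last step of triglyceride synthesis, stood at 521 ± 76.5 CPM in BATdKO and 270 ± 17.5 CPM in Cre- mice at 8°C (log2 0.95 ± 0.12, adjusted p = 3.82e-05), without overlap, and was the gene of the list called there. In the cold it rose by 0.80 ± 0.12 in BATdKO mice (adjusted p = 0.000111, edgeR), without overlap. It was not called in Cre- mice, at 271 ± 64.8 CPM at 30°C and 270 ± 17.5 CPM at 8°C. Its interaction was 0.81 ± 0.17 (adjusted p = 0.0715), the 1 call of the 6 lists in that comparison, and it was lost without BATdKO 30°C m1, m2 or m6, Cre- 8°C m1, m4, m5 or m6, or BATdKO 8°C m1, m3, m4 or m5 (adjusted p up to 0.154).

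Of the transcription factors known to act on lipase genes, 12 of 14 were tested, and 3 were called higher in the cold in Cre- mice and 2 in BATdKO mice, with medians of 0.119 and 0.0911 and none lower. Ppargc1a, a coactivator of thermogenic genes that is also one of the brown adipocyte markers above, rose by 1.27 ± 0.16 and 0.95 ± 0.15. Cebpb, an early factor of fat cell differentiation, rose by 0.87 ± 0.14 and 0.48 ± 0.14, the latter call being lost without BATdKO 30°C m6 or BATdKO 8°C m1, m2 or m4 (adjusted p up to 0.111). Nr3c1, the glucocorticoid receptor, rose by 0.35 ± 0.12 in Cre- mice, which was lost without Cre- 30°C m1 to m5, BATdKO 30°C m2 or Cre- 8°C m1, m4, m5 or m6 (adjusted p up to 0.198). At 8°C, Foxo1, a factor that insulin restrains, was 0.42 ± 0.090 higher under the BATdKO label (adjusted p = 0.0127). Cebpa, a master factor of fat cells, was 0.25 ± 0.070 higher (adjusted p = 0.0871), a call that held in 9 of 24 fits with 1 library left out and needed m2 and m5 of Cre- 30°C, m2 and m3 of BATdKO 30°C, m1 and m3 to m6 of Cre- 8°C and all 6 of BATdKO 8°C (adjusted p up to 0.191). At 30°C, 0 genes of the 6 lists were called by edgeR. That count depended on the m6 libraries, since 10 genes were called higher and 1 lower without Cre- 30°C m6, 1 higher without BATdKO 30°C m6, and 15 higher and 1 lower without both.

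**Figure D5:**
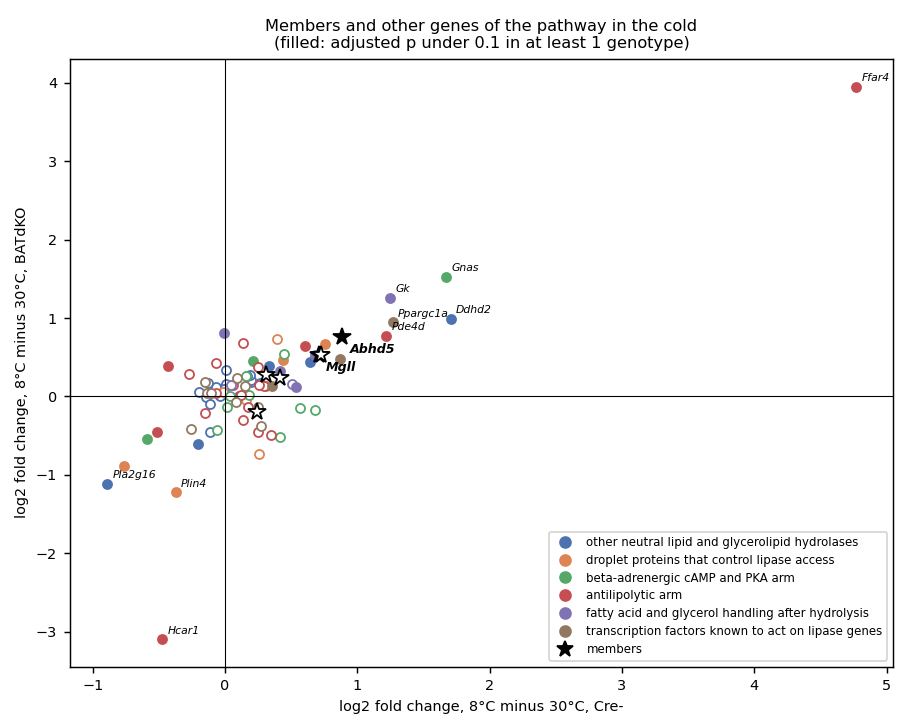
Log2 fold change in the cold in Cre- mice (horizontal) and in BATdKO mice (vertical) for the 6 members (stars) and the genes of the 6 lists (circles). Filled symbols were called in at least 1 genotype. Names are given for called members of any size of change and for called list genes with a change of at least 1. Ffar4 (4.77 and 3.95) and Hcar1 (-3.09 in BATdKO) lie farthest out, and Mgll and Abhd5 lie in the upper right.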

How the data were processed

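BAT RNA of 24 mice was prepared with a QuantSeq 3′ kit, which reads a tag near the end of each transcript. Per the labels and the methods, BBDuk trimmed the reads, STAR 2.5.3a aligned these to GRCm38 and Rsubread counted per gene. The authors deposited the raw, unnormalized counts. The annotation release, strand setting and rule for leaving out low counts are not given in the sources used here. The study removed outliers that it does not name, and all 24 libraries were used. Of 12615 genes, 12608 had a symbol. Groups came from the genotype and temperature in the labels, and replicates are separate mice.

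The main test was edgeR 4.0.16 under R 4.3.3, with TMM normalization, filterByExpr on the 4 groups (12485 kept, 130 removed), a quasi-likelihood model with a mean per group over all 24 libraries, and Benjamini-Hochberg adjustment over all tested genes, with calls at an adjusted p under 0.1. Standard errors came from the F statistic and 95% intervals from 20 degrees of freedom. Counting intervals of single libraries cover counting error only. DESeq2 1.42.0, RLE scaling, other filters, robust dispersion, fits on the compared groups alone and each library left out were alternatives. Leaving out Cre- 30°C m4 with m6, and both m6 at 30°C, was added after seeing the data. The steps were tested on simulated data. Likeness used log2 CPM with a prior count of 2, and 1 gene of that comparison is not reported here.

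The members and lists were chosen with earlier results of these data known. Genes named from a list were, by rule, all called in a genotype comparison or the interaction and up to 4 of smallest p in each cold comparison. Promoters came from RefSeq tables and figures were drawn with matplotlib 3.10.9.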

Additional observations from a re-analysis of the deposited data

Results flagged for a closer look

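In groups of 6 mice, a mouse was singled out when its gap to the nearest other mouse, divided by the range of the group, exceeded Dixon's critical value at 95%. Chance singles out about 1 in 20 groups (5%), and 44 groups were examined. The values of 3 groups met this. The log2 ratio of Mgll to Pnpla2 in Cre- 30°C m3 was 0.549 against -0.248 in the next mouse (gap 0.691 of the range), and this mouse had the lowest Pnpla2 and the highest muscle marker sum of its group. For single genes the rule was applied to log2 CPM. Abhd5 in BATdKO 30°C m6 was 2.35 on that scale (4.81 CPM) against 3.43 in the next mouse (10.5 CPM), a gap of 0.711 of the log2 range. G0s2 in BATdKO 8°C m5 was 3.71 (12.8 CPM) against 4.78 (27.1 CPM), a gap of 0.7 of the log2 range.

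The effect of the BATdKO label on Dgat2 differed between temperatures, by an interaction of 0.812 on the log2 scale (adjusted p = 0.0715, edgeR, and 0.00485 to 0.154 over the alternatives). No interaction of a member passed the test.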

How the results depend on the processing

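The calls of Mgll and Abhd5 in both cold comparisons held in all 32 alternatives. No paired analysis was possible because the mouse numbers in the labels pair no mice between groups. Of 30 member results, 21 kept their direction and side of the threshold throughout. Near 0, signs turned for Pnpla2 at 8°C (-0.103 to 0.0539 with 1 library left out), Ces1d at 8°C (-0.16 to 0.204), Ces1d at 30°C (-0.0501 to 0.449), and the interactions of G0s2 (-0.47 to 0.179, and 0.0256 in DESeq2) and Ces1d (-0.424 to 0.0828). The number of called genes was less stable. With 1 library left out it ran from 138 (without BATdKO 8°C m5) to 276 for genotype at 8°C, from 0 to 369 (without Cre- 30°C m6) for genotype at 30°C, from 791 to 1343 for cold in Cre-, from 574 (without BATdKO 8°C m4) to 1069 for cold in BATdKO and from 7 (without BATdKO 30°C m2) to 37 (without Cre- 8°C m2) for the interaction, beside 227, 0, 1143, 883 and 12 with all libraries. Called members then ran from 0 to 1 at 30°C and from 2 to 3 for cold in Cre- mice. Genotype at 8°C gave 477 genes when fitted on its groups alone. Genotype at 30°C gave 92 in DESeq2, 383 without Cre- 30°C m4 and m6 (1 member) and 500 without both m6 libraries (3 members). The interaction gave 51 in DESeq2, 21 with robust dispersion, 25 without Cre- 30°C m4 and m6 and 44 without both m6. The cause was not tested. Of 1908 counts of called list genes under the alternatives, 145 moved by more than 1.5 times. Of 51 results for named list genes, 40 kept their call in every alternative that gave them an adjusted p, and 0 reversed. Robust dispersion ended 4, those of Ddhd2, Cidec, Plin4 and Adrb3 at 8°C. The low counts of Abhd5 and the spread of G0s2 and Ces1d limit what could be detected.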
